A study of Homo sapiens with 42 samples.

Results

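Both siE4 and siE8 are siRNAs that the labels name for POLR3GL, and the comparison here sets the 3 HEK293T libraries of siE4 directly against the 3 of siE8, 6 of the 42 libraries in the series. HEK293T is a human embryonic kidney line that carries the SV40 large T antigen. Cells were transfected with 25 nM of siRNA using Lipofectamine RNAiMax and taken after 48 h, and polyadenylated RNA was sequenced from paired ends. Another POLR3GL siRNA, siE6, and a control siRNA, each at 25 nM for 48 h in 3 libraries, share the experiment and are given where they show on which side a difference lies. The cells came from 1 stock of the line, the labels do not say whether the 3 libraries of a group came from separate cultures, and no untransfected cells are used here. The study asks how inhibition of RNA polymerase III bears on protein-coding genes. A pair of siRNAs against 1 target can show differences between the siRNAs. It does not fully separate what follows the target from what follows the siRNA, since both are read against 1 control siRNA and only RNA was measured.

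RNA polymerase III (Pol III) transcribes tRNAs, 5S rRNA and other short noncoding RNAs. One of its subunits, RPC7, exists in alternative forms encoded by POLR3G and POLR3GL, and MAF1 is a repressor of the enzyme. An siRNA guides Argonaute proteins to a fully matched transcript, which is cut, and it can also lower other transcripts that match bases 2 to 8 of its guide strand, the seed, most often through sites in their 3′ UTRs. The siRNA sequences themselves were not analysed here, so sites are described by the 7-base words (7-mers) found in the transcripts.

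The 7-mers described below are GCTATCT and AACGTGG, which were picked from values of these same libraries, and both occur in POLR3GL. In siE4 minus siE8 itself GCTATCT ranked highest, while AACGTGG ranked 25 from the lowest. GCTATCT was the 7-mer whose presence in 3′ UTRs went with the lowest levels in siE8 relative to the control siRNA, and AACGTGG was the one that went with the lowest levels in siE4 relative to the control siRNA. The sequences below are the transcript strand, 5′ to 3′, from GENCODE 29 on GRCh38, with the 7-mer in capitals and 10 bases on either side. They show the sites in POLR3GL and in genes with a large difference between siE4 and siE8.
POLR3GL, AACGTGG, coding sequence, exon 2 of 8, chr1:145974907-145974933, plus strand: gttgaccttcAACGTGGaggccgtggg
POLR3GL, GCTATCT, 3′ UTR, exon 8 of 8, chr1:145978627-145978653, plus strand: tatcacctttGCTATCTtggggaaagt
REEP3, GCTATCT, 3′ UTR, exon 8 of 8, chr10:63621491-63621517, plus strand: ttttactgatGCTATCTttattgtttt
REEP3, GCTATCT, 3′ UTR, exon 8 of 8, chr10:63624480-63624506, plus strand: tttgtaaaagGCTATCTctaagcctag
ZCCHC12, GCTATCT, 3′ UTR, exon 4 of 4, chrX:118826558-118826584, plus strand: ccacaaagcgGCTATCTtttggggtgg
ATP6V0C, GCTATCT, 3′ UTR, exon 3 of 3, chr16:2520079-2520105, plus strand: ttgtctcccaGCTATCTataaccttag
IL6ST, GCTATCT, coding sequence, exon 10 of 17, chr5:55956092-55956118, minus strand: acaaatgatcGCTATCTagcaacccta
HK1, AACGTGG, coding sequence, exon 15 of 18, chr10:69392153-69392179, plus strand: ggagatgaagAACGTGGagatggtgga

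The 6 libraries held 37393877 to 46023990 estimated reads, and levels are given as CPM, reads scaled to library size. In a principal component analysis of the 12 libraries of the experiment, the first 3 components held 35.2%, 32.0% and 18.2% of the variance. On the second component siE4 libraries lay at 19.5 to 20.9 and siE8 libraries at -40.9 to -34.7, with siE6 at 14.3 to 15.3 and the control siRNA at 2.17 to 5.88, and the replicates of each group lay together. The 17 kidney epithelial markers summed to 98.1 to 102 CPM in siE4 and 89.6 to 93.0 CPM in siE8 libraries. Of them KRT18 averaged 46.4 CPM in siE4 and 49.2 CPM in siE8, CDH1 was higher in siE4, at 15.6 ± 0.721 CPM against 5.85 ± 0.643 CPM in siE8, and CDH16 and UMOD, markers of mature tubules, were at 0 reads. Of the 17 markers, 10 averaged under 1 CPM with siE4 and 9 with siE8. Among the 8 with enough reads to test, 2 were called higher and 2 lower in siE4, with a median of log2 -0.125, siE4 minus siE8.

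POLR3GL (ENSG00000121851, on the plus strand of chromosome 1 from 145964702 to 145978848) was low with both siRNAs. It was measured at 3.37, 2.88 and 2.43 CPM in siE4 libraries and at 2.54, 2.84 and 2.45 CPM in siE8 libraries, against 3.37, 2.74 and 3.97 CPM in siE6 libraries and 32.6, 36.4 and 33.4 CPM in control siRNA libraries. The siE4 and siE8 libraries overlapped, and both lay far below every control library. The difference, siE4 minus siE8, was log2 0.14 ± 0.146 (SE) with a 95% interval of -0.171 to 0.46, and edgeR's quasi-likelihood test gave an adjusted p of 0.409. That interval leaves room for a level up to about log2 0.46 higher in siE4, and the missed threshold does not show that the levels are alike.

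The main coding transcript, POLR3GL-202, was measured at 1.93 ± 0.239 TPM with siE4 and 2.27 ± 0.1 TPM with siE8, against 29.8 ± 2.00 TPM with the control siRNA (SD, n = 3 each). The retained-intron transcript POLR3GL-203 rested on few estimated reads, 13.4, 11.3 and 12.6 in siE4 libraries against 4.88, 3.98 and 2.01 in siE8 libraries, and these did not overlap. No test was made on single transcripts.

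Of the other Pol III genes, POLR3G, the paralog, was at 17.6 ± 1.54 CPM with siE4 and 16.5 ± 0.972 CPM with siE8, with the control siRNA at 29.6 to 33.7 CPM. Its difference of log2 0.0864 ± 0.081 did not pass the test (adjusted p = 0.375) and had the other sign with an offset for each gene's average transcript length (log2 -0.20, adjusted p = 0.0772; the alternatives gave 0.0772 to 0.806). MAF1 was lower with siE4, at 56.9, 52.7 and 54.7 CPM, than with siE8, at 63.2, 68.0 and 64.8 CPM, a difference of log2 -0.25 ± 0.0568 (adjusted p = 0.00152).

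The transcriptomes of the siRNAs differed widely. The test covered 15573 genes, of which 9806 (63.0%) passed the threshold, an adjusted p under 0.05. Of these, 4753 (30.5%) were higher and 5053 (32.4%) were lower in siE4 than in siE8. A difference of over 2-fold was called for 1777 genes (11.4%), 975 (6.26%) higher and 802 (5.15%) lower in siE4. The 3 libraries of either siRNA did not overlap for 10529 genes (67.6%). Most of the calls were thus small, and with shares this high a call alone says little about a single gene.

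**Figure D1:**
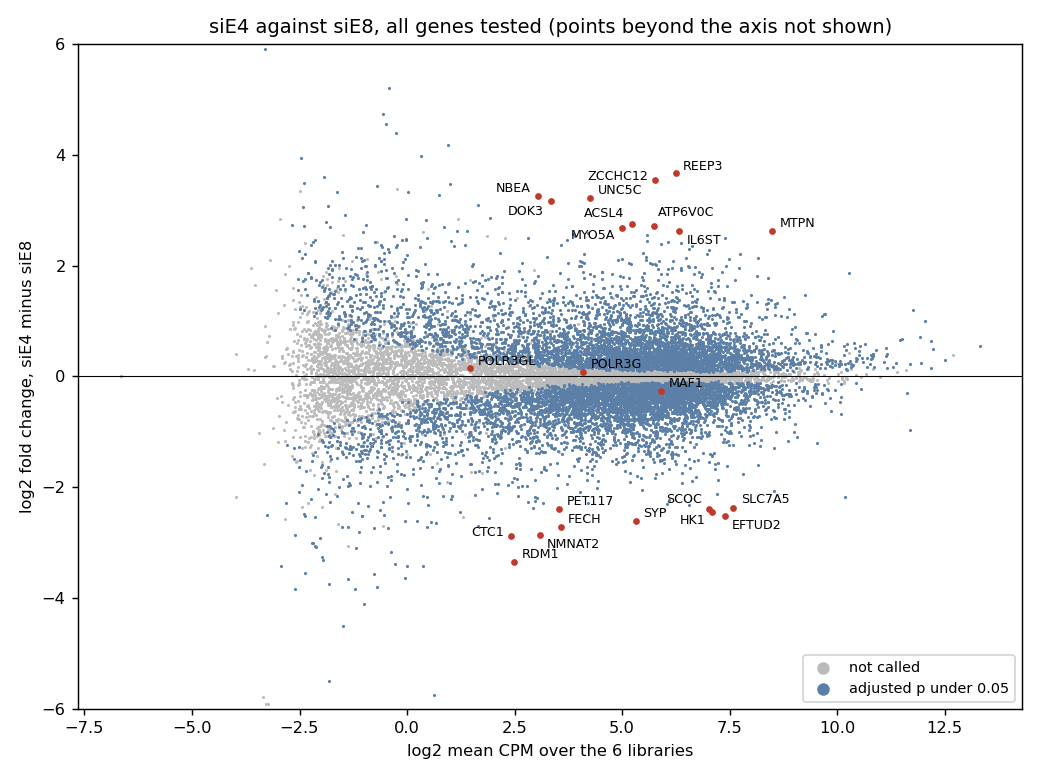
Each point is a gene tested, placed by its log2 mean CPM over the 6 libraries and its log2 fold change, siE4 minus siE8. Blue points passed an adjusted p of 0.05, and red points with names are POLR3GL, POLR3G, MAF1 and the 10 largest rises and falls at a mean of at least 5 CPM, with POLR3GL close to 0 and the named rises and falls beyond log2 2.

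The 10 largest rises in siE4 over siE8, at a mean of at least 5 CPM, ran from 12.7-fold for REEP3 to 6.16-fold for IL6ST. REEP3, an endoplasmic reticulum protein that keeps that membrane clear of mitotic chromosomes (ENSG00000165476, chromosome 10, 63521363 to 63625123, plus strand), was at 145, 137 and 139.6 CPM in siE4 libraries and at 12.4, 9.54 and 11.2 CPM in siE8 libraries. In siE6 libraries it was at 85.4 to 88.8 CPM and in control siRNA libraries at 89.6 to 98.4 CPM. The siE8 libraries were thus the ones that stood apart, and the difference was log2 3.66 ± 0.0728 (adjusted p = 2.29e-12). ZCCHC12, a zinc finger protein of the nervous system, was at 107, 97.3 and 96.5 CPM with siE4 and at 9.61, 7.81 and 8.41 CPM with siE8, against 36.2, 43.0 and 42.1 CPM with the control siRNA. Here siE4 lay above the control and siE8 below it (siE4 minus siE8, log2 3.54 ± 0.0912).

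UNC5C, a netrin receptor, was at 34.2, 35.0 and 35.0 CPM with siE4 and at 4.37, 3.56 and 3.22 CPM with siE8, but siE6 had 4.45, 4.12 and 5.12 CPM as well, against 23.8 to 24.5 CPM with the control siRNA. ATP6V0C, the membrane ring subunit of the vacuolar proton pump, was at 95.7, 92.6 and 89.3 CPM with siE4 and at 14.3, 13.7 and 14.5 CPM with siE8, against 66.8, 78.5 and 68.2 CPM with the control siRNA. MTPN, a small ankyrin-repeat protein that binds actin capping protein, was the most abundant of the 10 rises, at 650.0, 624 and 589 CPM with siE4 and 102, 101 and 97 CPM with siE8. In siE6 it lay between, at 229 to 234 CPM, and control siRNA libraries had 473 to 544 CPM. In each of these genes all siE8 libraries lay below all siE4 and all control libraries.

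DOK3, an adaptor protein best known from B cells, had another pattern: it was at 17, 18 and 20.3 CPM with siE4 and 2.51, 1.90 and 1.73 CPM with siE8, against 3.75, 2.86 and 2.51 CPM with the control siRNA, so that siE4 stood apart. The rest of the 10 were NBEA, a vesicle trafficking protein of neurons (log2 3.27 ± 0.431), ACSL4, a long-chain acyl-CoA synthetase (log2 2.75 ± 0.206), MYO5A, an unconventional myosin (log2 2.67 ± 0.196), and IL6ST, the shared receptor chain gp130 of interleukin-6 family cytokines (log2 2.62 ± 0.140). NBEA was the least steady, at 12.7, 16 and 16.2 CPM with siE4 and 1.14, 3.04 and 0.532 CPM with siE8. Its log2 difference was 4.16 without siE8 replicate 2 and 1.68 with the length offset.

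The 10 largest falls ran from 10.2-fold for RDM1 to 5.19-fold for SLC7A5, with siE4 below siE8. EFTUD2, a GTPase of the spliceosome's U5 particle (ENSG00000108883, chromosome 17, 44849943 to 44899662, minus strand), was at 50.6, 49.7 and 48.0 CPM with siE4 and at 274, 291 and 290.0 CPM with siE8, against 324 to 336 CPM with siE6 and 183, 183 and 191 CPM with the control siRNA. The siE4 libraries stood below all others, and the difference was log2 -2.53 ± 0.0398 (adjusted p = 4.89e-13). HK1, the hexokinase that begins glycolysis in most tissues, was at 43.9, 43.4 and 40.9 CPM with siE4 and at 230.3, 239 and 226 CPM with siE8, against 172, 190.2 and 185 CPM with the control siRNA. Its relative HK2 was also lower, at 68.6 ± 1.61 CPM with siE4 and 219.7 ± 21.8 CPM with siE8.

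SCOC, a coiled-coil protein of the Golgi, was at 43.8, 41.8 and 39.2 CPM with siE4 and 207, 224 and 221 CPM with siE8, against 171 to 187 CPM with the control siRNA. FECH, the last enzyme of haem synthesis, was at 2.23, 2.43 and 4.68 CPM with siE4 and 18.3, 21.9 and 21.8 CPM with siE8, against 13.2 to 15.6 CPM with the control siRNA. PET117, a factor for assembly of cytochrome c oxidase, was at 3.72 ± 0.281 CPM with siE4 and 19.5 ± 1.10 CPM with siE8. CTC1, a subunit of the telomere-binding CST complex, was at 1.29 ± 0.519 CPM with siE4 and 9.44 ± 0.511 CPM with siE8. For these genes siE4 was again the lowest group and lay below the control. In SCOC the siE6 libraries also lay below the control, at 132, 134 and 128 CPM. With the length offset FECH still fell, but by log2 -1.23 in place of -2.71.

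NMNAT2, an NAD-synthesis enzyme that maintains axons, differed in its side: 2.34, 1.61 and 2.16 CPM with siE4 and 15.0, 15.3 and 14.4 CPM with siE8, against 3.38, 4 and 3.89 CPM with the control siRNA, so that siE8 was above the control. RDM1, a protein that binds recombination intermediates, was listed at 0, 0 and 2.91 CPM with siE4 and at 10.5, 9.19 and 11.3 CPM with siE8. It was at 0 in every siE6 library and at 9.2, 10.8 and 10.3 CPM with the control siRNA, so siE8 lay near the control. Its log2 difference of -3.35 ± 0.901 (adjusted p = 0.00706) missed the threshold in a fit over all HEK293T libraries (adjusted p = 0.0661; the alternatives gave 9.19e-09 to 0.0661). Without siE4 replicate 3 it was fitted at log2 -11.64, which depends on the prior count and is no bound.

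**Figure D2:**
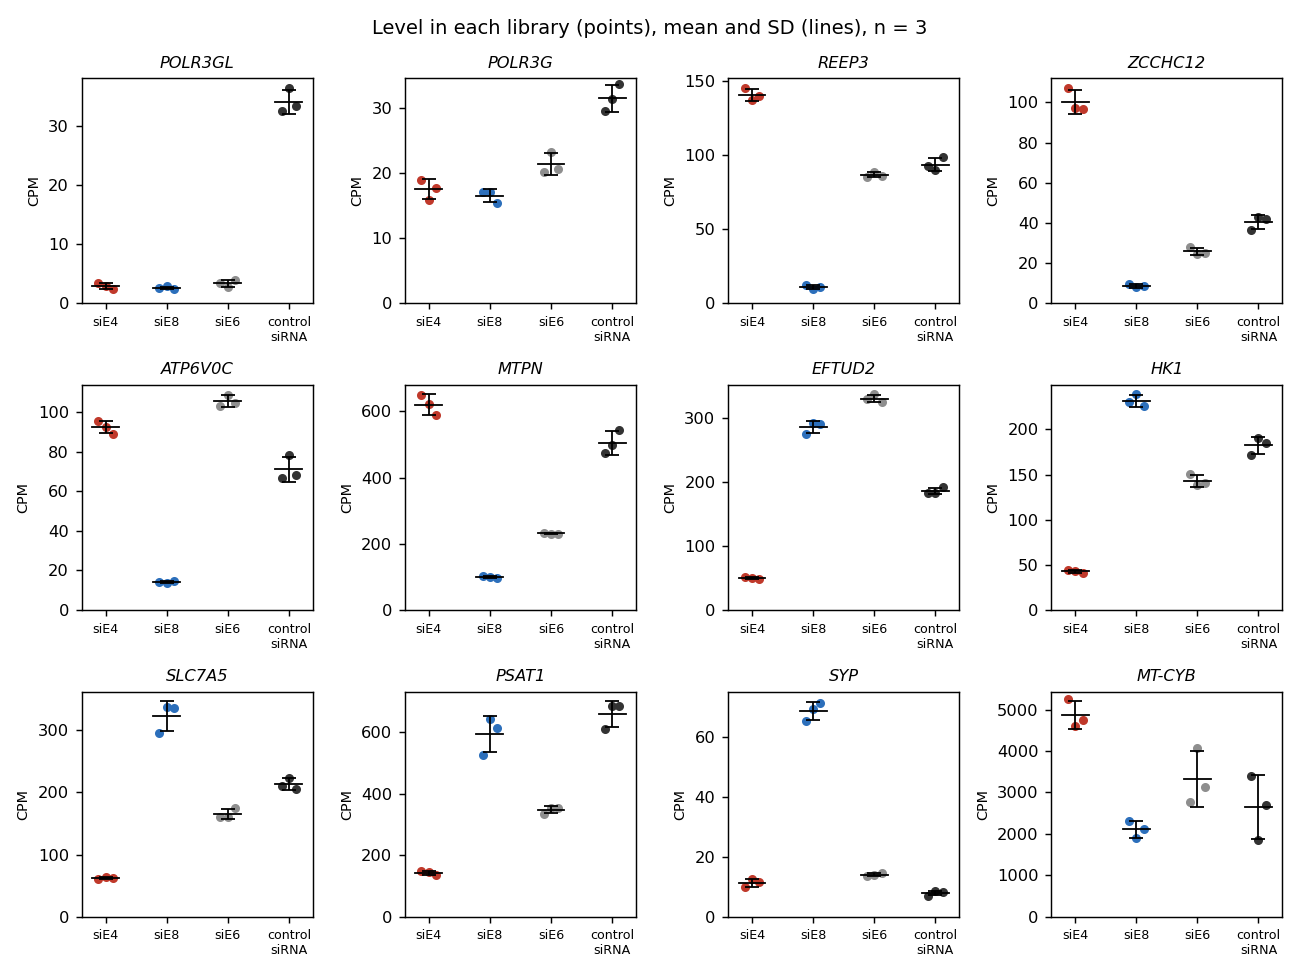
Level in CPM of 12 genes in each library of siE4, siE8, siE6 and the control siRNA; points are libraries, and lines are the mean and SD of 3. REEP3, ZCCHC12, ATP6V0C and MTPN are low with siE8, EFTUD2, HK1, SLC7A5 and PSAT1 are lowest with siE4, and SYP is high with siE8.

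The same sides held over the larger set. Of 519 genes over 2-fold higher in siE4 at a mean of at least 5 CPM, the control mean lay nearer to siE4 for 436 (84.0%), and it lay below both siRNAs for 17 and above both for 120. Of 432 genes over 2-fold lower in siE4, the control mean lay nearer to siE8 for 306 (70.8%). These are counts of position, with no test, since both siRNAs are read against the same control libraries.

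Next, 7-mers in annotated 3′ UTRs were ranked by the median log2 difference of the genes that hold them minus that of the genes that do not. The ranking used 10882 genes whose mean was 5 CPM or more and that had a 3′ UTR of at least 50 bases on the transcript strand, leaving out POLR3GL, and it covered 15523 of 16384 7-mers found in at least 100 genes. GCTATCT ranked highest in siE4 minus siE8, with a difference of 0.484, and lowest in siE8 minus control, at -0.511. In siE4 minus control it was at 0.0355 and in siE6 minus control at -0.0681. The next 7-mers from the top were CTATCTA (0.394) and TGCTATC (0.330), which overlap it by 6 bases. Of the 10 highest, 3 occur in the main transcript of POLR3GL, whose 7-mers make up 6.68% of those ranked. GCTATCT and TGCTATC are among these 3 and share 6 bases, so the 3 are not separate matches. Of the 10 lowest in siE4 minus siE8, 0 occur in that transcript.

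AACGTGG, the lowest for siE4 minus control at -0.214, was at -0.17 in siE4 minus siE8, where it ranked 25 from the lowest. In siE8 minus control it was at -0.027. The lowest 7-mer in siE4 minus siE8 was CCGCGTC, at -0.213, which is not in the main transcript of POLR3GL. In the comparisons with the control, the same control libraries enter each value. None of 2545 human mature miRNAs in the RefSeq table (0 of 2545) had a seed that pairs with GCTATCT or AACGTGG.

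A site for GCTATCT was present in the 3′ UTR of 640 of the 10882 genes (5.88%). Genes with no site had a median log2 difference, siE4 minus siE8, of -0.0398 (10242 genes), genes with 1 site one of 0.439 (591 genes), and genes with 2 or more sites one of 0.568 (49 genes). Of genes with 1 site, 70.4% were called higher and 13.9% lower in siE4, and of genes with no site 33.0% were called higher and 39.7% lower. Sites followed by an A in the transcript had a median of 0.707 (115 genes), and sites followed by another base one of 0.398 (476 genes).

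Genes with the 7-mer in the coding sequence and not in the 3′ UTR lay between, with a median of 0.302 (481 genes). The sign was the same in each tertile of UTR length. Among 3′ UTRs of the short tertile, the medians were 0.693 with a site (40 genes) and -0.0567 without one. In the middle tertile they were 0.544 (147 genes) and -0.0498, and in the long tertile 0.418 (453 genes) and -0.00835. Relative to the control siRNA, genes with 1 GCTATCT site had medians of 0.0417 in siE4, -0.454 in siE8 and -0.025 in siE6.

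AACGTGG was present in fewer 3′ UTRs, 422 (3.88%), and went with smaller differences of the other sign. The median, siE4 minus siE8, was -0.016 with no site (10460 genes), -0.185 with 1 (397 genes) and -0.226 with 2 or more (25 genes). Of genes with 1 site, 49.6% were called lower and 25.2% higher in siE4, and of genes with no site 37.8% were called lower and 35.6% higher. Genes with the 7-mer in the coding sequence and not in the 3′ UTR had a median of -0.147 (967 genes). Relative to the control, genes with 1 AACGTGG site had medians of -0.208 in siE4 and -0.00782 in siE8. The 25 genes with 2 or more sites had medians of -0.105 in siE4 and 0.15 in siE8. Their lower siE4 minus siE8 median thus did not come with lower levels in siE4.

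**Figure D3:**
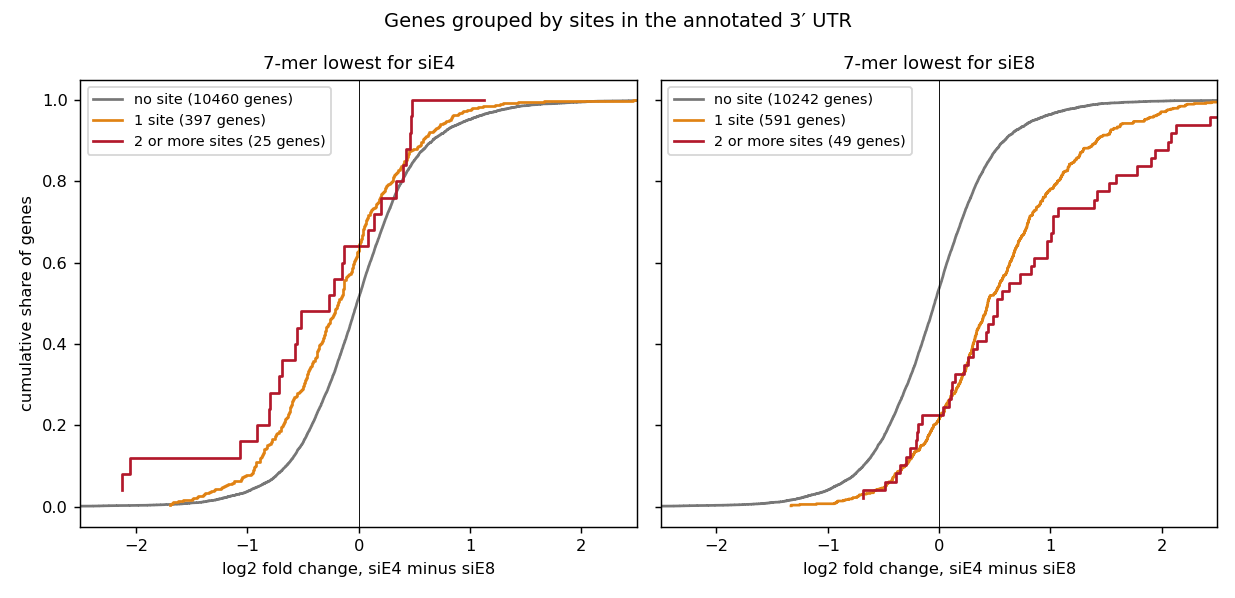
Cumulative share of genes by log2 fold change, siE4 minus siE8, for genes with no site, 1 site and 2 or more sites of the 7-mer that ranked lowest for siE4 (left) and for siE8 (right) against the control siRNA. Curves of genes with sites lie left of the curve without sites for the siE4 7-mer, at medians of -0.185 and -0.226, and right of it for the siE8 7-mer, at medians of 0.439 and 0.568. Both 7-mers were picked from values of these same libraries.

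Among the 10 largest rises, 3 had a GCTATCT site in the 3′ UTR (REEP3 with 2, ZCCHC12 and ATP6V0C with 1 each) and 3 more had it in the coding sequence (ACSL4, MYO5A and IL6ST). The other 4 rises held it in neither part of the annotated transcript used. Of the 10 largest falls, 0 held GCTATCT, and 2 held AACGTGG in the coding sequence, HK1 and NMNAT2. Over the 10882 genes ranked, GCTATCT was in the 3′ UTR of 5.88% and in the coding sequence alone of 4.42%. AACGTGG was in the 3′ UTR of 3.88% and in the coding sequence alone of 8.89%. Counts among 10 falls are too small to set against these shares, and the genes and 7-mers were picked from the same libraries. NMNAT2 was at log2 -0.88 in siE4 relative to the control and at 1.99 in siE8, so the presence of the 7-mer does not by itself give the side of a difference. MYO5A holds an AACGTGG site in its 3′ UTR and was at log2 0.26 in siE4 relative to the control. A match here is a description of letters in a transcript.

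Gene lists are given as counts of members called, beside 30.5% higher and 32.4% lower and a median of log2 -0.00334 over all genes tested. The targets of ATF4, the transcription factor of the integrated stress response, were lower in siE4 than in siE8: 26 of 30 tested members were called lower and 1 higher (ATF5, called higher at log2 0.28), with a median of log2 -0.724. SLC7A5, the large neutral amino acid transporter, was at 60.5, 64.0 and 62.2 CPM with siE4 and at 295, 338 and 336 CPM with siE8, against 211, 224 and 205 CPM with the control siRNA. PSAT1, of serine synthesis, was at 147, 146 and 134 CPM with siE4 and at 527, 641 and 612 CPM with siE8, against 611, 684 and 684 CPM with the control siRNA. GPT2, a mitochondrial alanine transaminase, was at 34.8 ± 0.727 CPM with siE4 and 133 ± 8.36 CPM with siE8. In all 3 genes the siE4 libraries lay below those of siE8, siE6 and the control.

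Cytosolic tRNA synthetases, several of which are ATF4 targets in human cells, were lower as well, 16 of 20 called lower and 0 higher, with a median of log2 -0.395. YARS1, which charges tyrosine tRNA, was at 186 ± 3.51 CPM with siE4 and 411 ± 27.0 CPM with siE8 (log2 -1.14 ± 0.0525). AARS1, for alanine, was at log2 -1.07 ± 0.0464 and GARS1, for glycine, at 256 ± 13.9 CPM with siE4 and 511 ± 34.7 CPM with siE8. Relative to the control siRNA the list's median was log2 -0.237 in siE4, 0.114 in siE8 and -0.205 in siE6. For the ATF4 targets it was -0.805 in siE4, 0.0262 in siE8 and -0.608 in siE6, so that siE8 was the one near the control.

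Neuronal genes that REST represses, listed with REST and its partner RCOR1, were mostly lower in siE4. Of 22 tested, 15 were called lower and 5 higher in siE4, 11 of them over 2-fold lower, with a median of log2 -1.1. SYP, the synaptic vesicle protein synaptophysin, was at 9.80, 12.5 and 11.5 CPM with siE4 and at 65.3, 69.1 and 71.4 CPM with siE8, against 13.7 to 14.6 CPM with siE6 and 6.96, 8.44 and 8.26 CPM with the control siRNA. BEX1, a small protein abundant in neurons, was at 9.05, 8.81 and 8.69 CPM with siE4 and 29.4, 30.1 and 31.3 CPM with siE8, against 8.87 to 9.69 CPM with the control siRNA. Both genes were highest in siE8 among the 4 groups. SYP also lay above the control in siE4 and in siE6, at log2 0.51 and 0.83, well below the log2 3.12 of siE8.

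The 2 genes of that list that act as the repressor moved the other way. RCOR1, a corepressor, was at 62.7 ± 1.58 CPM with siE4 and 40.6 ± 0.959 CPM with siE8 (log2 0.63 ± 0.0447). REST, named here after its values were seen, was at 105 ± 5.24 CPM with siE4 and 44.7 ± 5.87 CPM with siE8, against 96.3 ± 6.62 CPM with the control siRNA (log2 1.23 ± 0.0888, adjusted p = 5.49e-08). REST held 0 sites of GCTATCT in its annotated 3′ UTR. Many members were scarce, and 10 members rather than 20 were called once a mean of 5 CPM was required, 7 lower and 3 higher, with a median of log2 -0.6 in place of -1.1. Adrenal and neuronal markers summed to 699 to 722 CPM with siE4 and 907 to 965 CPM with siE8, against 215 to 253 CPM with siE6 and 995 to 1117 CPM with the control siRNA, nearly all from the neurofilament genes NEFM and NEFL. In this sum, unlike in SYP and BEX1, siE8 lay below the control, and TH was at 0 reads in siE4 and siE8. Their part in the result was not tested, and in bulk RNA fewer cells of a type and less RNA per cell cannot be told apart.

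**Figure D4:**
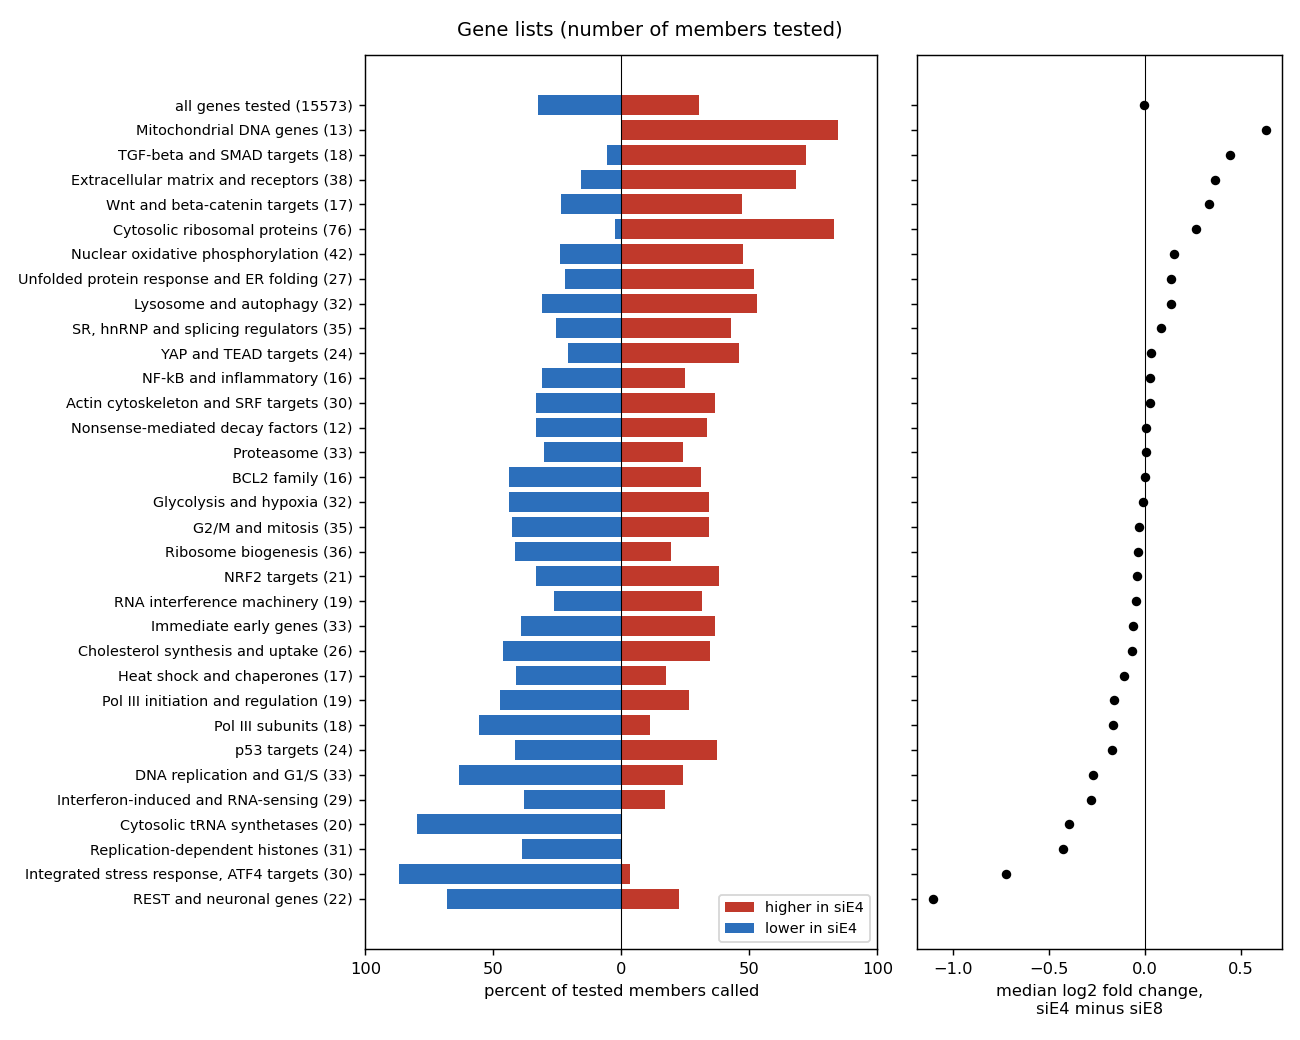
Percent of tested members of each gene list called higher (right, red) and lower (left, blue) in siE4 than in siE8, with the number tested in brackets, and the median log2 fold change of the list. All genes tested stand at the top, followed by the lists from the highest median (mitochondrial DNA genes, 0.631) to the lowest (REST and neuronal genes, -1.1).

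Lists that were higher in siE4 than in siE8 came from the mitochondrial genome, the cytosolic ribosome and the cell surface. Of the 13 mitochondrial DNA genes tested, 11 were called higher and 0 lower, with a median of log2 0.631, and 7 were called at an adjusted p under 0.01. Relative to the control siRNA the list's median was log2 0.67 in siE4, 0.0538 in siE8 and 0.533 in siE6. MT-CYB, a subunit of respiratory complex III, was at 5253, 4597 and 4757 CPM with siE4 and at 2304, 1905 and 2118 CPM with siE8. The control siRNA libraries, at 3407, 1849.6 and 2694 CPM, spread more widely than either. Of 42 nuclear genes of oxidative phosphorylation, 20 were called higher and 10 lower, with a median of log2 0.155, and NDUFB10, of complex I, was lower at log2 -1.40 ± 0.0608.

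Of 76 cytosolic ribosomal proteins 63 were called higher and 2 lower in siE4, with small differences at a median of log2 0.269. Relative to the control siRNA the list's median was log2 0.263 in siE4, -0.0158 in siE8 and 0.283 in siE6. RPL15 was at 1937 ± 103 CPM with siE4 and 1288 ± 45.7 CPM with siE8. RPL36 went the other way, at 216 ± 13.8 CPM with siE4 and 529 ± 30.4 CPM with siE8. Ribosomal protein and mitochondrial genes have near-identical copies elsewhere in the genome, so the estimated reads of a single member are uncertain.

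Among extracellular matrix proteins and their receptors, 26 of 38 were called higher and 6 lower in siE4 than in siE8, with a median of log2 0.367. Relative to the control siRNA the list's median was below 0 with each siRNA, at log2 -0.381 in siE4, -0.689 in siE8 and -0.219 in siE6. TIMP3, an inhibitor of metalloproteinases, was at 99.8, 109 and 103 CPM with siE4 and 29.9, 28.7 and 27.8 CPM with siE8, against 79.1 to 86.4 CPM with the control siRNA. ITGB1, the common integrin beta chain, was at 479.9 ± 16.5 CPM with siE4 and 191 ± 5.41 CPM with siE8. Unlike the list's median, TIMP3 and ITGB1 lay above the control in siE4, at log2 0.34 and 0.19. GPC4, a cell surface proteoglycan, was lower in siE4 than in siE8, at log2 -1.12 ± 0.0425. Fibroblast markers, some of which are matrix genes, summed to 27.5 to 31.0 CPM with siE4 and 41.2 to 44.2 CPM with siE8, with 5 of 9 under 1 CPM in either group. COL1A1, at 9.79 ± 1.07 CPM with siE4 and 28.2 ± 2.63 CPM with siE8, carried that sum, while 3 of the 7 markers tested were called higher in siE4 and 1 lower, with a median of log2 0.216. Their part in the result of the matrix list was not tested.

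Targets and components of TGF-beta signalling were called higher in siE4 in 13 of 18 cases and lower in 1 (SMAD2, log2 -0.22), with a median of log2 0.447. ID2, an inhibitor of basic helix-loop-helix factors, was at 284, 270.1 and 256 CPM with siE4 and 109.6, 109 and 102 CPM with siE8, against 252 to 277 CPM with the control siRNA. ID1 was at 12.8 ± 1.37 CPM with siE4 and 3.62 ± 0.544 CPM with siE8. In both genes the siE8 libraries lay lowest.

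For the Pol III machinery, 10 of 18 subunit genes were called lower and 2 higher in siE4, with a median of log2 -0.165 and 0 beyond 2-fold. POLR3D was at 40.6 ± 1.63 CPM with siE4 and 76.9 ± 3.14 CPM with siE8 (log2 -0.92 ± 0.0486). POLR3B, one of the large catalytic subunits, was higher, at log2 0.59 ± 0.0523. Of 19 initiation factors and regulators 9 were called lower and 5 higher. TBP, the TATA-binding protein, was at 44.9 ± 2.13 CPM with siE4 and 19.1 ± 0.418 CPM with siE8 (log2 1.23 ± 0.0451). Relative to the control siRNA it was at log2 0.66 in siE4, -0.57 in siE8 and 0.69 in siE6. Its 3′ UTR holds 1 GCTATCT site. GTF3C2, a subunit of TFIIIC, was at 119 ± 1.64 CPM with siE4 and 56.4 ± 0.623 CPM with siE8 and holds none. GTF3C5, another TFIIIC subunit, was lower in siE4, at log2 -0.57 ± 0.0424.

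Genes of DNA replication and the G1/S transition were lower more often than higher, 21 against 8 of 33, with a median of log2 -0.27. RFC4, of the clamp loader, was at 88.6 ± 1.17 CPM with siE4 and 162 ± 2.49 CPM with siE8. CCND2, cyclin D2, was the exception in size, at 488, 435 and 484 CPM with siE4 and 122, 94.8 and 101 CPM with siE8, and its 3′ UTR holds 1 GCTATCT site. Of 35 genes of G2/M and mitosis 12 were called higher and 15 lower, with ANLN at log2 1.74 ± 0.0362 and TOP2A at log2 1.09 ± 0.0443, each with 1 such site. Replication-dependent histones, whose usual transcripts lack a poly(A) tail, were called lower in 12 of 31 and higher in 0.

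Other lists held members that moved in both directions. HSP90AB1, a cytosolic chaperone, was at 2024, 1971 and 1863 CPM with siE4 and 544, 540.0 and 524 CPM with siE8, against 1938 to 2118 CPM with the control siRNA, while HSP90AA1 was lower in siE4 at log2 -0.31 ± 0.0539. Among NRF2 targets, TXNRD1 was lower, at 64.7 ± 2.41 CPM with siE4 and 237 ± 11.8 CPM with siE8, and HMOX1 was higher, at 36.4 ± 2.81 CPM with siE4 and 9.82 ± 1.02 CPM with siE8. Of the RNA interference machinery, 6 of 19 were called higher and 5 lower. MOV10 was at log2 -1.12 ± 0.0817 and AGO1 at log2 -0.74 ± 0.0554. Interferon-induced and RNA-sensing genes were called lower in 11 of 29 and higher in 5. IFIH1, which encodes the double-stranded RNA sensor MDA5, was at 2.56 ± 0.387 CPM with siE4 and 10.2 ± 0.232 CPM with siE8, against 6.94 CPM with the control siRNA.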

How the data were processed

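Poly(A)-selected, stranded libraries were sequenced from both ends for 151 cycles, per the labels' protocols. Per the submitters' processing notes, bcl2fastq 2.20, Trim Galore and Salmon were used with hg38, and DESeq2 is named as well. The sources used here give neither the versions of Trim Galore and Salmon nor the annotation. The authors deposited, per the file headers, an estimated count and a TPM value for each of 194142 transcripts in each library, not pooled.

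Transcripts were matched to GENCODE 29, which named 158359 (81.6%), and each gene's estimated counts were added up and rounded. Transcripts without a match, 8.06% to 8.59% of the reads of the 12 libraries of the 25 nM experiment, were left out. The 12 libraries of the 25 nM experiment were fitted in edgeR 4.0.16 (R 4.3.3) with filterByExpr, TMM normalization and the quasi-likelihood F-test, and siE4 was set against siE8, with p-values adjusted by Benjamini-Hochberg over the 15573 genes in the fit. The labels do not say that replicates were separate cultures, so the p-values reflect the spread of these samples alone, which may be technical. Replicates of a group differed by more than sampling noise, with a chi-square per degree of freedom of 6.13 to 34.6. Intervals cover the fit and not reads assigned to other transcripts, and 37 tested genes were at 0 reads in 1 replicate while a second replicate held 5 CPM or more.

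Named genes are POLR3GL, POLR3G and MAF1, the 10 largest called rises and falls (mean of 5 CPM or more, groups without overlap, standard symbol), and, for each list, of 37 in all, that had 3 or more calls, up to 3 called members in order of adjusted p. The text gives a part of the last. The members and lists were chosen with earlier results of these data known. Alternatives were DESeq2 1.42.0, its size factors, other filters and thresholds, the replicate block, other sets of libraries, a length offset, removal of the 37 genes and each library left out. The fit was tested on simulated data. Tables and figures were made with Python 3.11.15, pandas 2.3.3, numpy 2.4.6 and matplotlib 3.10.9. The siRNA sequences were not analysed here.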

Additional observations from a re-analysis of the deposited data

How the results depend on the processing

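Over 16 alternatives, 8219 to 10619 genes were called, against 9806 as reported, and leaving out each library in turn gave 9086 to 9600 calls, with 1712 to 1913 over 2-fold. With a mean of at least 5 CPM, 939 genes were over 2-fold in place of 1777, 527 higher and 412 lower in siE4, since fewer genes were then tested (11151). No scaling moved the median of all genes by more than 0.1 on the log2 scale. The replicate block gave 9687 calls. Same-numbered siE4 and siE8 libraries had correlations of -0.153, -0.15 and -0.0712 in their deviations from the group means, so the numbers were not taken as pairs. POLR3GL did not pass under any of the 16 alternatives (log2 0.02 to 0.26, adjusted p = 0.155 to 0.91). Of 127 named genes, 123 kept their call under each alternative that tested them. Nearly all were named for calls in the main fit, so this says little about calls in general. The genes that changed were POLR3G, which reversed to log2 -0.20 with the length offset, RDM1, LHX1 and LYZ. The cause of these changes was not tested. With a ranking of 7-mers over genes of at least 20 CPM, GCTATCT again ranked highest in siE4 minus siE8 (0.543), and AACGTGG ranked 143 from the lowest (-0.151).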

Other observations

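Further lists held members with large differences. Of 24 YAP and TEAD targets 11 were called higher and 5 lower in siE4, with a median of log2 0.0332. Among them TEAD1, the transcription factor itself, was at 178 ± 4.87 CPM with siE4 and 51.0 ± 4.29 CPM with siE8 (log2 1.80 ± 0.0626). PTPN14, which holds 2 GCTATCT sites in its 3′ UTR, was at log2 2.13 ± 0.0901. Relative to the control siRNA PTPN14 was at log2 1.39 in siE4, -0.74 in siE8 and 0.88 in siE6, so most of its difference lay in siE4. In the list of the unfolded protein response and endoplasmic reticulum folding, 14 of 27 were called higher and 6 lower in siE4, with a median of log2 0.138. There SEL1L, a scaffold of protein degradation with 2 such sites, was at 143 ± 4.30 CPM with siE4 and 49.5 ± 5.09 CPM with siE8. Relative to the control siRNA SEL1L was at log2 1.07 in siE4, -0.46 in siE8 and 0.81 in siE6. SDHC, of respiratory complex II, also holds 2 sites and was at 186 ± 9.27 CPM with siE4 and 95.1 ± 2.41 CPM with siE8. Of 24 p53 targets 9 were called higher and 10 lower in siE4, with a median of log2 -0.172. XPC was lower, at log2 -0.66 ± 0.0349. MDM2 and CCNG1 were higher in siE4 at log2 1 ± 0.0469 and 1.13 ± 0.0497 and hold 0 sites. SRSF11, a splicing factor with 1 site, was at log2 1.47 ± 0.0472.

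Among 7-mers in 3′ UTRs, TGACGTA and AGACGTA went with higher levels relative to the control siRNA with all 3 POLR3GL siRNAs. For TGACGTA the difference was 0.305 in siE4, 0.298 in siE8 and 0.206 in siE6, and for AGACGTA it was 0.305 in siE4, 0.314 in siE8 and 0.294 in siE6. In siE4 minus siE8, TGACGTA was at 0.0032. The 3 siRNAs are read against the same control libraries, so these values are not independent of each other.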
